A study of Mus musculus with 7 samples.

Results

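Epithelia move water by moving salt, and 9 mouse genes for this transport were read in lungs of mice that lack Gata5, the gene of a DNA-binding GATA-family factor. The genes were Scnn1a, Scnn1b, Scnn1g, Atp1b1, Slc12a2, Cftr, Slc26a4, Aqp1 and Aqp4, chosen by name with earlier results of these data known. All 18 probe sets (groups of short array probes for 1 transcript) whose only gene symbol in the platform annotation is a member were read, of 45101 in the deposited table. They stand for 9 of 18193 genes named there.

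Sodium enters lung epithelial cells at the air side through the epithelial sodium channel ENaC and leaves at the other side through the sodium pump, and water follows. Secretion runs the other way: chloride is loaded by the cotransporter NKCC1, the product of Slc12a2, and leaves through apical anion channels such as Cftr. Absorption of liquid by this machinery clears the lung at birth and keeps the alveoli open to air, and aquaporins let water pass membranes along the resulting gradients. Aqp1 is known in the lung chiefly from the lining of small vessels rather than from epithelium.

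Left lungs were taken from 8-week-old mice. The groups were 3 mice with the genotype Gata5 KO and 4 Wild Type mice (WT), described in the labels as biological replicates, with total RNA of each mouse on its own array. No further treatment, allele or transgene is given, and the sources used here state neither strain nor sex, nor which exons are missing, nor whether every cell lacks the gene. Levels below are log2 values as deposited, so a difference of 1 is a doubling.

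The arrays had near-equal medians, from 6.10 to 6.15. At a dim probe set of Gata5 the KO arrays read 4.71 to 5.15 and the WT arrays 5.32 to 5.85. WT replicate 4 stood apart in sex-linked transcripts, with Xist at 12.72 against 6.31 to 6.48 elsewhere. The Y-linked Eif2s3y was at 3.71 there against 9.30 to 9.68 elsewhere. By these transcripts it reads as female and all other arrays as male, so the WT group mixes sexes and the KO group does not. The control probe sets of beta-actin gave a 3′ minus middle difference of 2.84 to 3.34 on KO and 2.23 to 2.56 on WT arrays, larger in every KO sample (exact two-sided permutation p = 0.0286, the lowest value 3 against 4 arrays allow). Markers of lung cell types were present, with the type 1 cell gene Ager at 14.06 to 14.18, the type 2 cell gene Sftpc at 14.00 to 14.20 and the club cell gene Scgb1a1 at 14.45 to 14.61. Heart muscle genes were also read, with Myh6 at 11.86 to 12.66 and the mean of 5 such genes at 10.11 to 10.84 in KO and 9.99 to 11.04 in WT.

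KO and WT were compared with limma over 13285 genes, each through its probe set with the highest mean, and a gene passed at Benjamini-Hochberg adjusted p under 0.05. Of all genes tested, 15.6% passed, 1331 lower and 738 higher in KO, a balance that turned to 900 lower and 1196 higher after a further quantile normalization, stood at 1672 and 546 after median centring and at 1074 and 944 after cyclic loess. All 9 members were above the level filter, a log2 mean of 5.47. Of them 2 fell, Aqp1 and Cftr (10.0% of all genes fell), 0 rose (5.56% of all genes rose; at unadjusted p under 0.05 only Scnn1b was higher) and 7 did not pass, so 22.2% of members passed beside 15.6% of all genes. The median log2 change of the members was -0.0058 and that of all tested genes -0.0033. Groups did not overlap for 3 members (33.3%), Aqp1, Cftr and Scnn1b, against 29.6% of all tested genes.

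**Figure D1:**
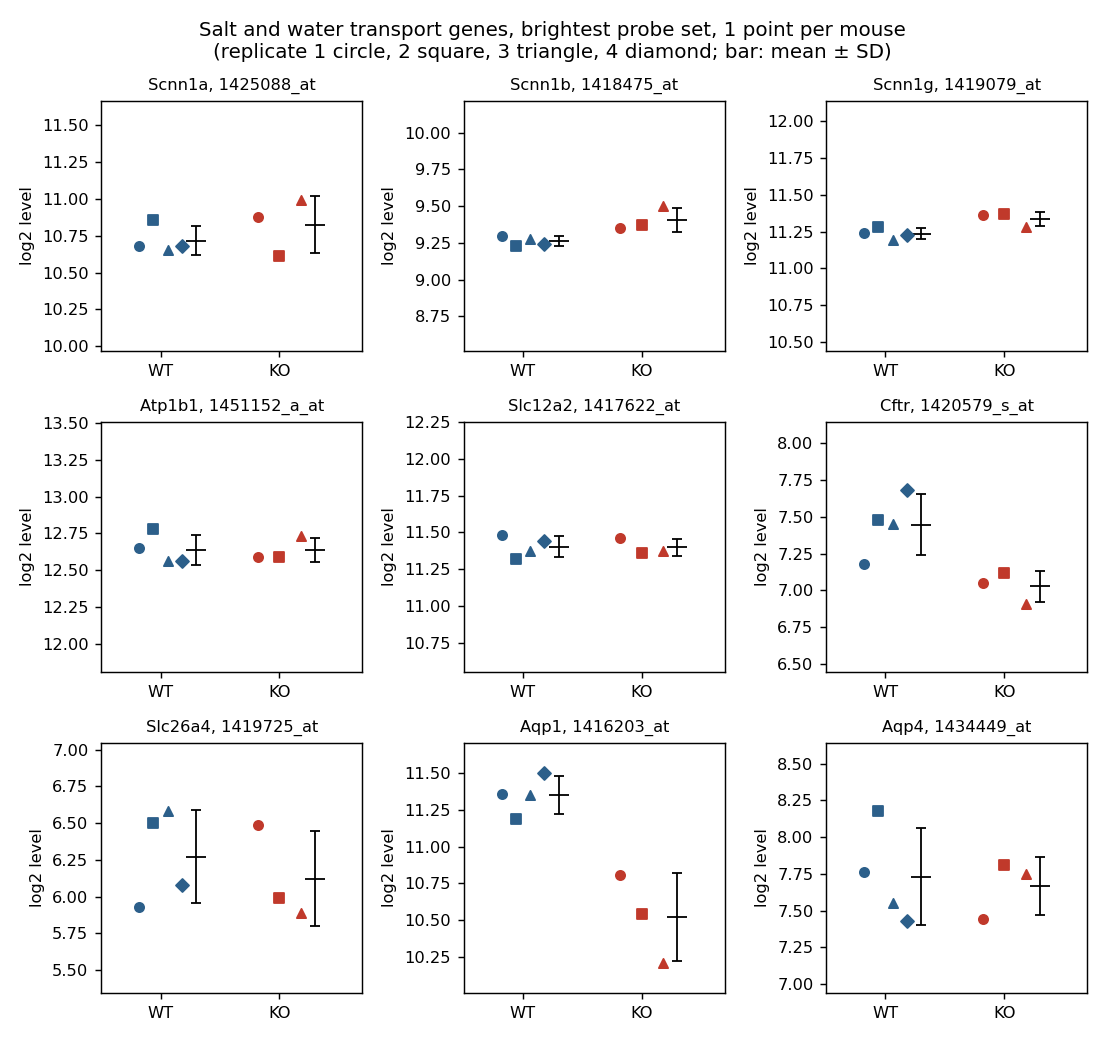
Log2 level (vertical axis, the same span in every panel) of the brightest probe set of each member, 1 point per mouse, WT in blue and KO in red, with the mean and SD beside each group. All 3 KO points lie below all 4 WT points for Aqp1 and Cftr, and all 3 lie above for Scnn1b, where the means differ by 0.14.

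The stretches just upstream of both genes that fell are shown because the deleted gene encodes a factor of the GATA family, which binds the letters GATA. They are the 250 bases before the annotated start, from RefSeq on GRCm38.p6, + strand, Aqp1 at chr6:55336049-55336298 and Cftr at chr6:18170437-18170686.
Aqp1: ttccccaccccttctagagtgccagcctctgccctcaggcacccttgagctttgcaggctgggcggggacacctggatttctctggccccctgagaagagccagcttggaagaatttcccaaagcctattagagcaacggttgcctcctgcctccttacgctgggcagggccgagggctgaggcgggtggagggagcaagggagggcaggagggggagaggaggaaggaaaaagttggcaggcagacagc
Cftr: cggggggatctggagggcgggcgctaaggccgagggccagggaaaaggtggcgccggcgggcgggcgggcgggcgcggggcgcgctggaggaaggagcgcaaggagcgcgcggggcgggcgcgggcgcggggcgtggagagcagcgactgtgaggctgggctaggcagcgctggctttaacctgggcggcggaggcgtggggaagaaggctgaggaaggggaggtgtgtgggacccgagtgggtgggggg
Windows of 300 bases, from 250 before to 50 after the start, were searched on both strands for AGATAA and TGATAA, each also with a final G, which share the core GATA and exclude one another at a position. Neither Aqp1 nor Cftr held any of them, and of the 6 members with a window (Aqp1, Cftr, Atp1b1, Scnn1b, Scnn1g and Slc26a4) only Slc26a4 did, against 29.8% of all 32851 windows. The match of Slc26a4 begins at base 41 after the start used for its window and reads TGATAA on the opposite strand (capitals). That start lies inside the gene, whose annotated span begins at chr12:31560055 on the - strand. The 30 bases shown, which hold the match, are chr12:31559935-31559964 on the - strand.
Slc26a4: cggagcccaaacaggtgagtTTATCAcaga
A match is a description of letters, and its absence says only that they are not in this window. The Cftr window was rich in G and C (71.3%), that of Aqp1 less so (62.7%), and the median over all windows was 52.7%.

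The water channels came apart. Aqp1, which speeds water across the walls of lung capillaries, was at 10.81, 10.54 and 10.21 in KO replicates 1 to 3 and at 11.36, 11.19, 11.35 and 11.50 in WT replicates 1 to 4. Every KO lung lay below every WT lung. The KO mean was 10.52 ± 0.30 (SD, n = 3) beside 11.35 ± 0.13 (SD, n = 4) for WT, so Aqp1 fell 1.78-fold (log2 change -0.83, 95% interval -1.14 to -0.52, limma adjusted p = 0.00917). The call held whichever array was left out, with a change between -0.98 and -0.68, and without WT replicate 4 it was -0.78 (limma adjusted p = 0.0301). It was lost with a control 3′ difference as covariate, where the change was -0.28 for beta-actin 3′ minus middle (limma adjusted p = 0.503), -0.87 for beta-actin 3′ minus 5′ and -0.89 for Gapdh. Each of these covariates separates KO from WT without overlap, and with them limma called 0, 0 and 5 of all 13285 tested genes. The loss is therefore not particular to Aqp1.

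Endothelial markers were lower on the same arrays as Aqp1. Over 8 of them the mean level was 9.40 to 9.71 in KO and 9.85 to 10.25 in WT, and 3 of the 8 fell, Pecam1, Tie1 and Emcn. This count and those of the lists below stand beside 10.0% of all genes tested that fell. Cdh5, the cadherin of endothelial junctions, read 10.35 to 10.62 in KO and 10.60 to 10.75 in WT without passing (log2 change -0.15, limma adjusted p = 0.221). Over 5 mesothelial markers, from another lining that makes Aqp1, the mean was 6.38 to 6.98 in KO and 7.08 to 7.84 in WT, and 3 of 5 fell. Over 6 smooth muscle markers it was 8.93 to 9.07 in KO and 9.20 to 9.44 in WT, and 3 of 6 fell, Tagln, Cnn1 and Des. Acta2, the brightest of the 6, alone went the other way without passing, at 12.69 to 12.87 in KO and 12.43 to 12.73 in WT (log2 change 0.165). Over 5 red cell markers, another source of Aqp1, the mean was 6.13 to 6.50 in KO and 6.10 to 6.64 in WT, groups that overlap. In whole lung, fewer cells of a type and less RNA per cell cannot be told apart, and the part of these cell types and of the 3′ difference in the Aqp1 result was not tested.

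Aqp4, a water channel of the basolateral side of airway epithelium, showed no such separation. At its brightest probe set, 1434449_at, it read 7.44, 7.81 and 7.75 in KO and 7.76, 8.18, 7.55 and 7.43 in WT. The KO values lie within the WT range, and the change of -0.06 did not pass (95% interval -0.46 to 0.33, limma adjusted p = 0.817). Its other probe sets, 1425382_a_at and 1447745_at, were under the level filter, between 3.80 and 4.12 on all 7 arrays, with log2 changes of -0.11 and 0.09. At this precision a change of Aqp4 of the size seen for Aqp1 lies outside the interval.

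Cftr, the anion channel opened by cyclic AMP whose loss causes cystic fibrosis, was the other member that fell. Its probe set 1420579_s_at read 7.05, 7.12 and 6.91 in KO and 7.18, 7.48, 7.45 and 7.68 in WT. The groups did not overlap, but KO replicate 2 lay just under WT replicate 1. The means were 7.03 ± 0.11 (SD, n = 3) and 7.45 ± 0.21 (SD, n = 4), a 1.34-fold decrease (log2 change -0.42, 95% interval -0.68 to -0.16, limma adjusted p = 0.0413). The call was lost when any array except WT replicate 1 was left out (changes -0.47 to -0.34, limma adjusted p up to 0.121), after a further quantile normalization (0.0528) and with array weights (0.0777). No control covariate kept the call, as for nearly all called genes. The change was -0.035 with beta-actin 3′ minus middle, -0.34 with beta-actin 3′ minus 5′ and -0.63 with Gapdh (limma adjusted p = 0.941, 0.498 and 0.165).

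The other Cftr probe set, 1427767_a_at, was dim on every array, at 3.33, 3.45 and 3.43 in KO and 3.28, 3.33, 3.27 and 3.30 in WT, under the level filter. Among epithelial markers, the mean over 7 type 2 cell genes was 12.24 to 12.36 in KO and 12.46 to 12.70 in WT, none of the 7 passing, while that of 6 club cell genes was 12.44 to 12.72 and 12.47 to 12.69. Of 8 type 1 cell genes 1 fell, Cldn18 (log2 change -0.95, limma adjusted p = 0.0140), and the other 7 did not pass. Of 6 tested ciliated cell genes 1 fell, Tppp3 (log2 change -0.71, limma adjusted p = 0.00864), and the other 5 did not pass. Of 5 listed genes of ionocytes, the rare airway cells richest in Cftr, the transcription factors Foxi1 and Ascl3 were under the level filter, at 4.12 to 4.38 and 4.96 to 5.28. The other 3 were above it and did not pass, with Atp6v0d2 at 8.41 to 9.11 (log2 change -0.32), Atp6v1c2 at 9.39 to 9.79 (0.21, without overlap) and Moxd1 at 5.60 to 5.99 (0.14). The mean over the 5 was 6.70 to 6.79 in KO and 6.63 to 6.73 in WT. The part of the type 2 cell difference and of the Cldn18 and Tppp3 decreases in the Cftr result was not tested.

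The subunits of ENaC, which sets the rate of sodium uptake, did not pass, and each mean was slightly higher in KO. Scnn1a, the pore subunit needed for channel activity, read 10.88, 10.61 and 10.99 in KO and 10.68, 10.86, 10.65 and 10.68 in WT. Its KO samples lie on both sides of the WT samples (log2 change 0.11, 95% interval -0.12 to 0.33, limma adjusted p = 0.446), and the estimate moved with the control covariate. It was -0.12 with beta-actin 3′ minus middle, 0.48 with beta-actin 3′ minus 5′ and 0.42 with Gapdh (limma adjusted p = 0.800, 0.218 and 0.163).

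Scnn1b, the beta subunit, whose overexpression dries airway surfaces in mice, read 9.35, 9.37 and 9.50 in KO and 9.30, 9.23, 9.28 and 9.24 in WT. All KO lungs lay narrowly above all WT lungs, yet the adjusted p missed the threshold (log2 change 0.14, 95% interval 0.0056 to 0.28, limma adjusted p = 0.133), and the change was -0.0075 with the beta-actin 3′ minus middle covariate. Scnn1g, the gamma subunit, read 11.36, 11.37 and 11.28 in KO and 11.24, 11.28, 11.19 and 11.23 in WT. KO replicate 3 equalled WT replicate 2, and Scnn1g missed the threshold (log2 difference 0.10, 95% interval -0.027 to 0.23, limma adjusted p = 0.227).

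Atp1b1, the beta subunit that brings the sodium pump to the membrane, has 5 probe sets. The brightest, 1451152_a_at, read 12.59, 12.59 and 12.73 in KO and 12.65, 12.78, 12.56 and 12.56 in WT, with a log2 change of -0.00083 (95% interval -0.17 to 0.17, limma adjusted p = 0.994) whose sign differed between scalings (0.049 after a further quantile normalization). The others were fitted with all 45037 probe sets that are not controls, of which 9.89% passed. None of the other 4 passed there. At 1418453_a_at the values were 9.64, 9.82 and 9.81 in KO and 10.07, 10.29, 9.94 and 9.97 in WT, without overlap (log2 change -0.31, limma adjusted p = 0.0721). At the dimmest, 1455949_at, they were 6.16, 6.23 and 6.38 against 6.07, 6.16, 6.02 and 6.05, with KO replicate 1 at the level of WT replicate 2 (0.18, limma adjusted p = 0.125).

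Slc12a2, whose product NKCC1 loads epithelial cells with chloride, was flat at its brightest probe set and lower at the others. At 1417622_at it read 11.46, 11.36 and 11.37 in KO and 11.48, 11.32, 11.37 and 11.44 in WT, with a log2 change of -0.0058 (95% interval -0.15 to 0.14, limma adjusted p = 0.956) that was 0.077 after a further quantile normalization and 0.063 after cyclic loess. At 1417623_at the values were 7.21, 6.84 and 6.55 in KO and 8.12, 7.74, 7.70 and 7.51 in WT. Every KO lung lay below every WT lung there, and this probe set fell 1.87-fold (log2 change -0.90, limma adjusted p = 0.0190 over all probe sets), a call lost without KO replicate 2 or KO replicate 3 (limma adjusted p = 0.0513 and 0.0606). At 1448780_at the values were 7.79, 7.55 and 7.50 against 8.04, 7.84, 7.99 and 7.84, again without overlap (-0.31, limma adjusted p = 0.0581). All 3 probe sets of Slc12a2 cite the same sequence record in the platform annotation. With the mean of all its probe sets in place of the brightest, Slc12a2 passed, at a log2 change of -0.41.

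The unequal change within a gene was measured per array, as the brightest probe set minus each other one, in 9 pairs chosen after the values were seen. For Slc12a2 1417622_at minus 1417623_at it was 4.25, 4.52 and 4.82 in KO and 3.36, 3.58, 3.67 and 3.93 in WT. The difference between groups, 0.90, was without overlap, with an exact two-sided permutation p of 0.0286 (0.0643 adjusted over the 9 pairs, so it does not pass). For Atp1b1 1451152_a_at minus 1418453_a_at it was 2.95, 2.77 and 2.92 in KO and 2.58, 2.49, 2.62 and 2.59 in WT, a difference of 0.31 (the same p and adjusted value). Slc12a2 1417622_at minus 1448780_at differed by 0.31 with the same p. The gap moved the other way for Atp1b1 1451152_a_at minus 1455949_at, at 6.43, 6.36 and 6.35 in KO and 6.58, 6.62, 6.54 and 6.51 in WT, again without overlap (difference -0.18, the same p and adjusted value). It was also smaller in KO for the Cftr pair, by a difference of -0.53 without overlap (exact two-sided permutation p = 0.0571, adjusted 0.0857). The other Cftr probe set was under the level filter, so that gap mostly restates the change of the brightest. None of the 9 pairs passed after adjustment, and the gap was larger in KO for 6 pairs and smaller for 3. These counts include the Cftr and Aqp4 pairs, whose dimmer probe sets were under the level filter. The same KO arrays carried the larger 3′ differences of beta-actin and Gapdh, the latter 3.85 to 4.31 against 3.33 to 3.68. The place of these probe sets along the transcripts was not analysed here, and the part of the 3′ difference was not tested.

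**Figure D2:**
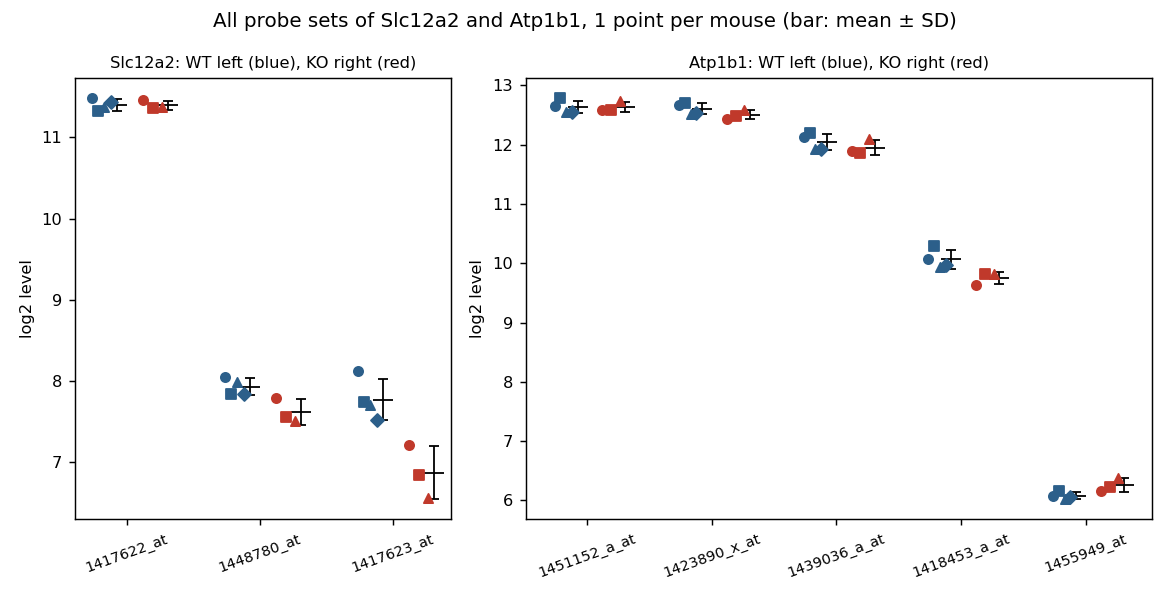
Log2 level (vertical axis) at each probe set of Slc12a2 (left) and Atp1b1 (right), 1 point per mouse, WT in blue beside KO in red, with mean and SD. At Slc12a2 the groups coincide at 1417622_at, near 11.4, and separate at 1417623_at, where KO reads 6.55 to 7.21 and WT 7.51 to 8.12.

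Slc26a4, pendrin, an exchanger of chloride for bicarbonate that airway epithelium makes mainly when inflamed, read 6.49, 5.99 and 5.89 in KO and 5.93, 6.50, 6.58 and 6.08 in WT. The groups overlap almost entirely, and the change of -0.15 did not pass (95% interval -0.59 to 0.29, limma adjusted p = 0.601). Over all 18 probe sets of the members, 2 fell, 0 rose and 16 did not pass in the fit over all probe sets, 11.1% against 9.89% of all probe sets (6.37% lower and 3.53% higher). Those were Aqp1 and Slc12a2 1417623_at. Cftr missed the threshold there (limma adjusted p = 0.0504). Groups did not overlap for 6 of the 18 (33.3%), beside 23.4% of all probe sets.

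**Figure D3:**
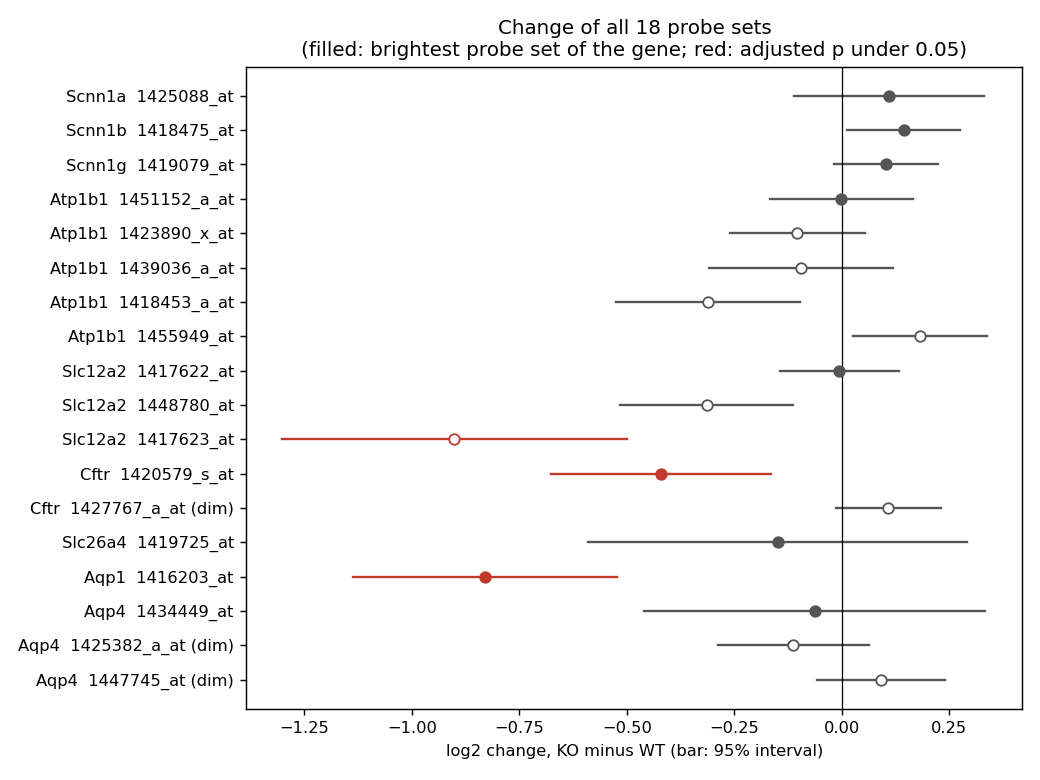
Log2 change, KO minus WT (horizontal axis), with its 95% interval from the fit over all probe sets, for each of the 18 probe sets. Filled points are the brightest probe set of a gene, judged by adjusted p over genes, and open points are judged over all probe sets. Red marks Aqp1 (-0.83), Cftr (-0.42) and Slc12a2 1417623_at (-0.90), and all other intervals are in grey.

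The neighbouring machinery was read from 7 lists of 79 further genes of salt and water transport, 72 of them on the array and 53 above the level filter. Of the 53, 6 fell, 2 rose and 45 did not pass, with a median log2 change of 0.02. That is 8 genes of 53 (beside 15.6% of all genes tested). The changed genes were spread over 6 of the 7 lists. All 8 calls were lost with each control covariate, as were nearly all calls among the 13285 tested genes, so this loss is not particular to them.

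Among 14 regulators of ENaC, 2 fell, 0 rose and 12 did not pass, where 15.6% of all genes tested passed and 10.0% fell. Nedd4l, the ubiquitin ligase that takes ENaC off the cell surface, read 8.95, 8.82 and 8.62 in KO and 9.37, 9.30, 9.19 and 9.47 in WT, a 1.45-fold decrease (log2 change -0.54, limma adjusted p = 0.0115) that held whichever array was left out. None of its other 5 probe sets passed, with log2 changes from -0.52 to 0.00, and with the mean of all its probe sets the call was lost. Tsc22d3, a glucocorticoid- and aldosterone-induced protein that stabilises ENaC at the surface, was at 9.26, 9.60 and 9.59 in KO and 10.44, 10.07, 9.94 and 10.79 in WT, a 1.77-fold decrease (limma adjusted p = 0.0276). Its call was lost without any of KO replicates 1 to 3 or WT replicate 1 (limma adjusted p up to 0.0788). Its other probe sets had changes of -0.25, -0.083 and 0.042, and none of them passed (limma adjusted p = 0.228, 0.458 and 0.705). With the mean of all its probe sets the call of Tsc22d3 was lost too (log2 change -0.28, limma adjusted p = 0.0639). Sgk1, the kinase that restrains Nedd4l, did not pass (0.02, with a sign that median centring turned to -0.010).

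Among 7 other pump genes Fxyd1, phospholemman, a small regulator of the pump, read 9.34, 8.92 and 9.22 in KO and 9.74, 9.80, 9.99 and 9.84 in WT. All KO lungs were lower, and it fell 1.60-fold (log2 change -0.68, limma adjusted p = 0.00846), whichever array was left out. The mean of the smooth muscle markers was lower on the same arrays, though Acta2 among them was not. Their part in the Fxyd1 result was not tested. The other 6 pump genes did not pass.

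Of 8 other chloride and anion carriers, Slc4a2, an anion exchanger of the basolateral membrane, was at 8.74, 8.22 and 8.75 in KO and 9.36, 9.25, 9.10 and 9.10 in WT. It fell 1.55-fold (limma adjusted p = 0.0208), a call lost without WT replicate 1 (0.0551). The other 7 did not pass, among them Ano1, the calcium-activated chloride channel (0.17). Of 10 cotransporters and kinases, Stk39, the kinase that switches on NKCC1, fell 1.28-fold (log2 change -0.36, limma adjusted p = 0.0281). In the fit over all probe sets, another Stk39 probe set, under the level filter, had a change of -0.46 (limma adjusted p = 0.0236). The third had -0.014 and did not pass (limma adjusted p = 0.889). The call of Stk39 was kept only without KO replicate 1 or KO replicate 2 (limma adjusted p up to 0.0709 without any of the others).

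Of 5 other aquaporins, Aqp11, an intracellular water channel, rose 1.26-fold (log2 change 0.34, limma adjusted p = 0.0381), lost without any of 5 arrays (KO replicates 1 and 3, WT replicates 1, 3 and 4, up to 0.101) and after cyclic loess. Aqp5, the water channel of the air side of type 1 cells, had means of 9.78 ± 0.17 in the 4 WT and 9.61 ± 0.13 in the 3 KO lungs (SD) and missed the threshold (difference -0.17, limma adjusted p = 0.265). Of 5 potassium channel genes, which recycle potassium during secretion, Kcne2 fell and Kcnn4 rose. Kcne2, an accessory subunit, went from 8.51 ± 0.18 (SD) in WT to 8.03 ± 0.25 in KO (limma adjusted p = 0.0437). Its call was lost without any of KO replicates 1 and 3 or WT replicates 2, 3 and 4 (up to 0.119). It was also lost after a further quantile normalization (0.0645), with array weights (0.0530) and without the level filter (0.0511). The change of Kcne2 was 0.063 with the beta-actin 3′ minus middle covariate, -0.66 with beta-actin 3′ minus 5′ and -0.88 with Gapdh. Kcnn4, the calcium-activated channel, went from 7.87 ± 0.10 (SD) in WT to 8.22 ± 0.21 in KO (limma adjusted p = 0.0497), a call lost without any array except KO replicate 3 (up to 0.120) and after median centring. With the mean of all probe sets the genes that rose lost their calls, Aqp11 at 0.21 (limma adjusted p = 0.0555) and Kcnn4 at 0.15 (0.133), and 0 pathway genes were called higher and 8 lower. None of 4 genes of proton and bicarbonate transport passed.

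**Figure D4:**
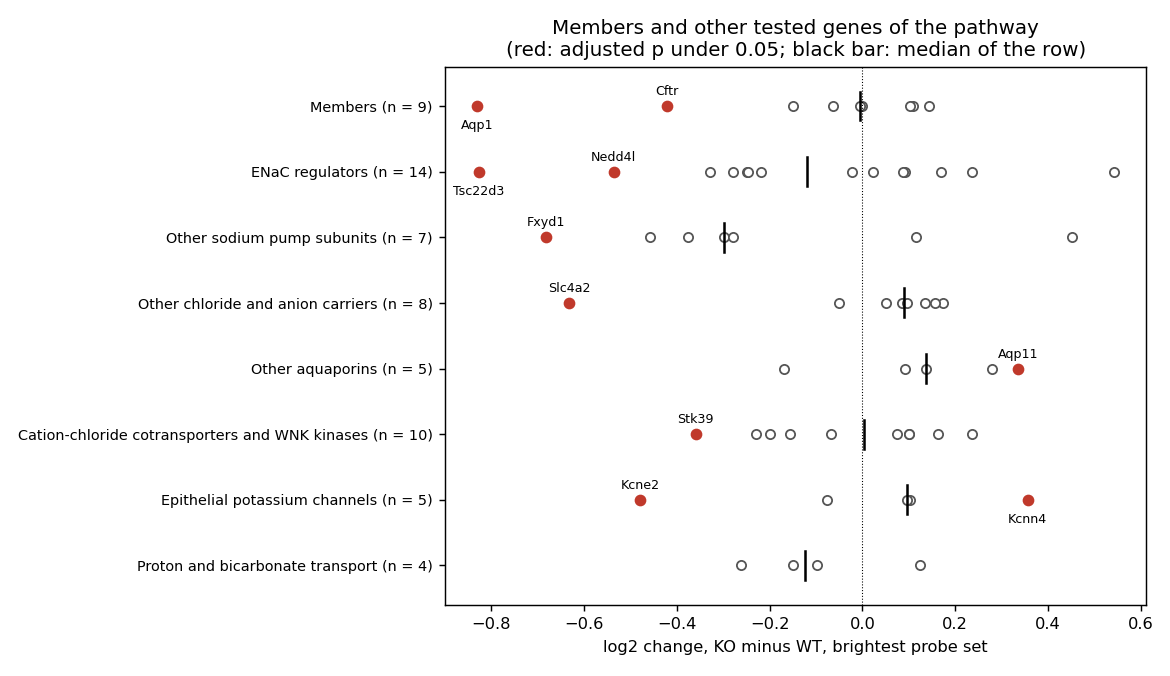
Log2 change, KO minus WT (horizontal axis), of the 9 members and of the tested genes of 7 further lists, 1 point per gene at its brightest probe set, with a black bar at the median of each row. Red points passed (2 members and 8 other genes), with Aqp1 at -0.83 and Tsc22d3 at -0.83 lowest and Kcnn4 at 0.36 the highest of them.

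The tested genes whose values followed a fallen member most closely over the 7 arrays were Atp9b, Zyx and Gm14057 for Aqp1 (Pearson r = 0.999, 0.998 and 0.991) and Cse1l, Sparcl1 and Sdcbp for Cftr (0.993, 0.988 and 0.978). These are descriptions over 7 arrays that share the split into KO and WT. As many as 731 genes followed Aqp1 with r above 0.9, and 293 followed Cftr.

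**Figure D5:**
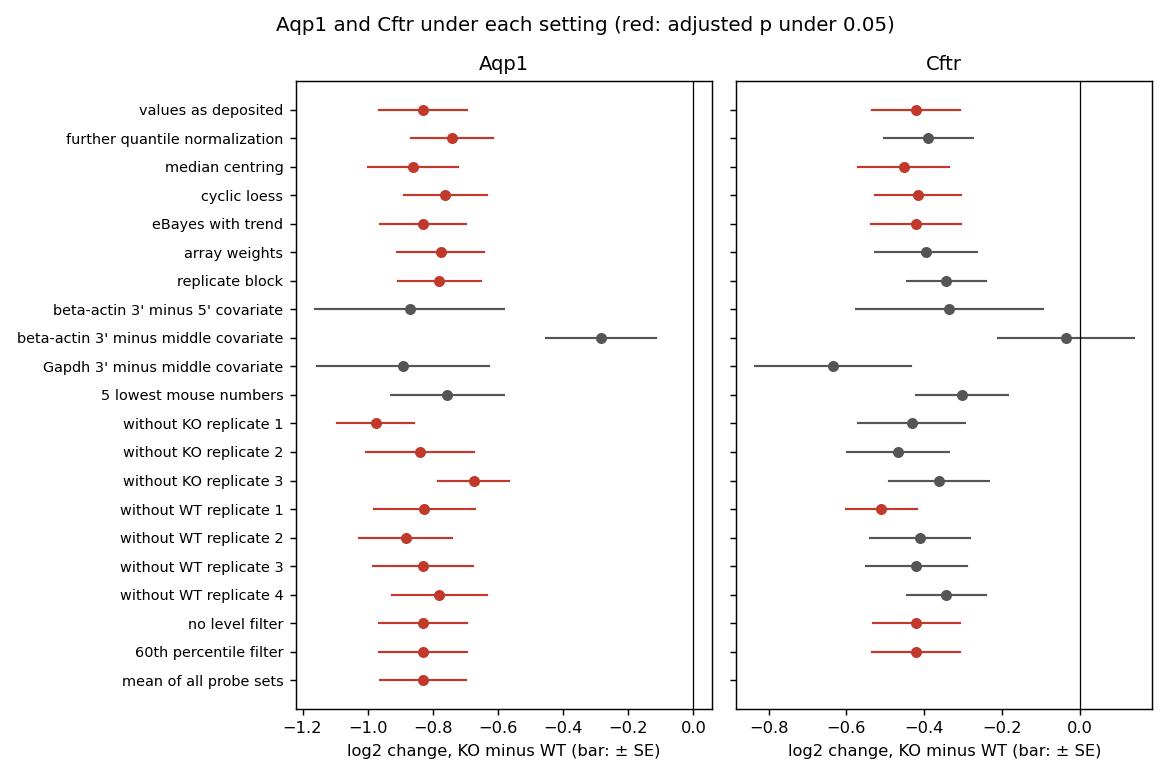
Log2 change, KO minus WT (horizontal axis), of Aqp1 (left) and Cftr (right) with its SE under each setting, red where adjusted p was under 0.05. Aqp1 stayed below 0 under every setting, between -0.98 and -0.28, and Cftr between -0.63 and -0.035, with most Cftr points grey. With the mean of all probe sets Cftr was under the level filter and has no point.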

How the data were processed

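Total RNA of 7 left lungs was profiled on Affymetrix arrays, 1 per mouse. The authors deposited log2 probe set levels to 2 decimals. Per the submitters' processing notes the tools were MAS5, RMA and Affymetrix Expression Console, with no role given, so the method behind the table is unstated, and the log base was taken from the range (2.91 to 14.61). Names came from the platform annotation, updated by gene identifier from RefSeq GRCm38.p6 for 34741 of 34945 probe sets with 1 gene (932 had several and 9160 none).

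Each of 18193 genes took its probe set with the highest mean, and means at or above the 40th percentile (5.47) were tested. Groups came from the labels. The contrast KO minus WT was fitted by limma 3.58.1 (lmFit, eBayes; R 4.3.3), and the same fit was run on all probe sets without a filter. Single values per array were compared by exact permutation over 35 splits. Limma p-values set the difference between groups against the spread between mice within groups. Permutation p-values rank that difference among the 35 splits. The number of arrays limits precision.

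The fit was tested on simulated data.

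Named were all members, the called genes of each list, Aqp5, Nedd4l, Sgk1 and Ano1, and 3 genes most like each called member. Members and lists were chosen with earlier results of these data known. Alternatives changed normalization, filter, probe sets, variance model, weights, block, control covariates and arrays. Values already on a log2 scale took no pseudocount. Figures were drawn with matplotlib 3.10.9.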

Additional observations from a re-analysis of the deposited data

Results flagged for a closer look

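Scnn1a in WT replicate 2 stood at a log2 level of 10.86, whereas the other WT arrays lay at 10.65, 10.68 and 10.68. The gap to its nearest neighbour was 0.857 of the whole range of the group, above Dixon's 95% critical value for a group of 4. The WT values of 18 probe sets were examined in this way, and chance flags about 5% of groups.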

How the results depend on the processing

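Aqp1 kept its direction under every setting tried, and Cftr under every setting except the mean of all probe sets, where it was under the level filter and has no value. The count of members called was 2 and became 1 after a further quantile normalization or with array weights. With either beta-actin covariate, the Gapdh covariate or the 5 lowest mouse numbers alone (3 KO, 2 WT), limma called 0 members (2, 0, 3 and 2 at unadjusted p under 0.05, in the order beta-actin 3′ minus 5′, beta-actin 3′ minus middle, Gapdh, 5 mice), 0 member probe sets and 0 pathway genes. It called 0, 0, 5 and 0 of all tested genes (2204, 1742, 2726 and 2791 at unadjusted p under 0.05). Member probe sets called were 2, and 4 after median centring. With 1 array left out, the counts ranged from 891 to 1951 of all genes (lowest without WT replicate 4), 1 to 2 members, 1 to 3 member probe sets and 3 to 8 pathway genes (lowest without WT replicate 1). Replicate numbers did not pair the mice (correlations of deviations 0.0033, -0.042 and 0.035), and with the replicate block 371 genes, 1 member (Aqp1) and 2 pathway genes passed.

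Signs that turned belonged to values that did not pass, except Kcne2. With the beta-actin 3′ minus middle covariate they were Scnn1a (-0.12), Scnn1b (-0.0075), Slc12a2 (0.038), Slc26a4 (0.22), Kcne2 (0.063), Aqp5 (0.0055) and Atp1b1 1455949_at (-0.018). With beta-actin 3′ minus 5′ they were Atp1b1 (0.12), Slc26a4 (0.12), Sgk1 (-0.17), Ano1 (-0.014) and Atp1b1 1439036_a_at (0.058). With Gapdh they were Atp1b1 (0.15), Slc12a2 (0.056), Aqp4 (0.038), Sgk1 (-0.064), Ano1 (-0.30), Atp1b1 1423890_x_at (0.022) and 1439036_a_at (0.16), and Aqp4 1425382_a_at (0.070). Further quantile normalization turned Atp1b1 (0.049) and Slc12a2 (0.077), cyclic loess Atp1b1 (0.066) and Slc12a2 (0.063), array weights Slc12a2 (0.0013), the replicate block Slc12a2 (0.0067), median centring Sgk1 (-0.010) and the 5 mice Sgk1 (-0.0033). With 1 array left out, Atp1b1 ranged from -0.048 to 0.047, Slc12a2 from -0.038 to 0.020, Aqp4 from -0.16 to 0.087 and Sgk1 from -0.035 to 0.075. The cause was not tested.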
